A study of Mus musculus with 11 samples.

Results

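Slc32a1, Gabra5, Gabrb1, Calb1 and Calb2 form a group of 5 genes that serve GABA signalling or buffer calcium in neurons. They were found by their gene symbols among the 6041 genes named on a two-colour oligonucleotide array, and each had 1 probe. The members were selected on their low ratios of null mutant over wild type in this same comparison, so those ratios are given below as a description, with no test.

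RNA of the neocortex was compared between C57BL/6 mouse embryos that carry a null mutation, described in the record as synaptically silent, and wild-type C57BL/6 embryos, at embryonic day 18. Each of 11 arrays set 1 null sample against wild-type RNA, which the design text describes as pooled. Cy3 labelled the mutant RNA on 6 arrays (1, 2, 6, 7, 8 and 10), called Cy3 arrays below, and Cy5 did so on 5 (3, 4, 5, 9 and 11), called Cy5 arrays. The labels name no Cre or promoter that would limit the mutation to a cell type. For arrays 1 and 6, the age of the wild type is 14 days in its characteristics but 18 in its source name.

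All values are the deposited log ratios, read as log2 of null over wild type, so that -1 stands for a null level of 1 in 2 of the wild type. Neither the log base nor the direction is given in the sources used here. The direction is likely from Xist, the RNA of the inactive X chromosome, which lay between -7.37 and -4.18 on 6 arrays (4 with the mutant in Cy3 and 2 in Cy5) and between 0.0024 and 0.67 on the other 4 that measured it. A pool that holds females reads high for Xist against a male sample, whichever dye it carries. The arrays carried 4822 to 6316 values, and their number limits the precision. The ratios give no level of a gene, so the neocortex label could not be checked by the presence of markers. Each array is centred near 0, which hides any change shared by most genes.

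GABA is the main inhibitory transmitter of the adult brain. It is made from glutamate by the decarboxylases Gad1 and Gad2, loaded into vesicles by the transporter Slc32a1 and received by GABA-A receptors, which are chloride channels built of 5 subunits drawn from several families. Before birth GABA often depolarises neurons, because they still hold much chloride, which Slc12a2 brings in. Calb1 (calbindin) and Calb2 (calretinin) bind calcium through EF-hands and mark classes of interneurons. Calb2 is also found in Cajal-Retzius cells of the marginal zone, and Calb1 is abundant in the striatum, next to the neocortex.

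The promoters of 3 of the 5 genes were found in the RefSeq promoter table of build GRCm38.p6. The 250 bases before the start site are shown for these genes, the 3 members that load or receive GABA. CG pairs, the sites of DNA methylation, are in capitals. The strands and positions are chr2:158610508-158610757 (+) for Slc32a1, chr7:57510060-57510309 (-) for Gabra5 and chr5:71657671-71657920 (+) for the first of 2 listed starts of Gabrb1.
Slc32a1: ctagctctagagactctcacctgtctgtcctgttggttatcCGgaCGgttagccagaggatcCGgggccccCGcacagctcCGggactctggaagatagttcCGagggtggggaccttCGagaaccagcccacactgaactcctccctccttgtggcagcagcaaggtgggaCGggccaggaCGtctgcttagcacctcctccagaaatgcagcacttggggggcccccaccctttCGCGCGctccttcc
Gabra5: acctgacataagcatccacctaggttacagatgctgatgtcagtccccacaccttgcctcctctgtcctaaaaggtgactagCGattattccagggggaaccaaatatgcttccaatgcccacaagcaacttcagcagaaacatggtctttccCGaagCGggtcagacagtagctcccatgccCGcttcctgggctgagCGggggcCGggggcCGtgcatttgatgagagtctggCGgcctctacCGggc
Gabrb1: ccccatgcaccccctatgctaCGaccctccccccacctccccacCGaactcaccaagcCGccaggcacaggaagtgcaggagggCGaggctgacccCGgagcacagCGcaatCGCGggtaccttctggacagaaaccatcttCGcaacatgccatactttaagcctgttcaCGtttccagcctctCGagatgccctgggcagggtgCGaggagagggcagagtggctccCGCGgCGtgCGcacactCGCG

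These stretches hold 12, 9 and 18 CG pairs, and the second start of Gabrb1 holds 6, where the median of 32851 listed promoters is 6. Their share of G and C is 62.4% in Slc32a1, 56.4% in Gabra5 and 64.4% in Gabrb1, against a median of 52.4%. Over the 300 bases listed around each start, including those after it, 6 motifs were searched on both strands. They were the cAMP response element TGACGTCA (in 1.79% of all promoters), its overlapping core TGACG (20.8%), the homeodomain motif TAATTA (5.29%), the E-box CAGCTG (16.3%), the GC box GGGCGG (35.7%) and the TATA box TATAAA (13.6%). None of these letters occurred in the 4 windows of the 3 genes.

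All 5 genes were lower in the null neocortex on each of the 11 arrays, by amounts that differed widely between them. Of 4812 genes tested, 4.32% were lower on all 11 arrays, and 28.8% passed an adjusted p of 0.05 in limma in either direction. In the fit over all genes, Calb1 had a log2 ratio of -1.46 ± 0.10 (SE, n = 11), Slc32a1 one of -1.02 ± 0.06, Gabra5 one of -0.85 ± 0.04, Calb2 one of -0.49 ± 0.06 and Gabrb1 one of -0.42 ± 0.04. If the logs are of base 2, the null held 36.3% of the wild-type level of Calb1, 49.4% of that of Slc32a1, 55.5% of that of Gabra5 and 71.0% of that of Calb2. Calb1 had the 5th lowest ratio of the 4812 genes, Slc32a1 the 13th, Gabra5 the 22nd, Calb2 the 91st and Gabrb1 the 133rd. In such bulk tissue, fewer cells of a type and less RNA per cell cannot be told apart.

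**Figure D1:**
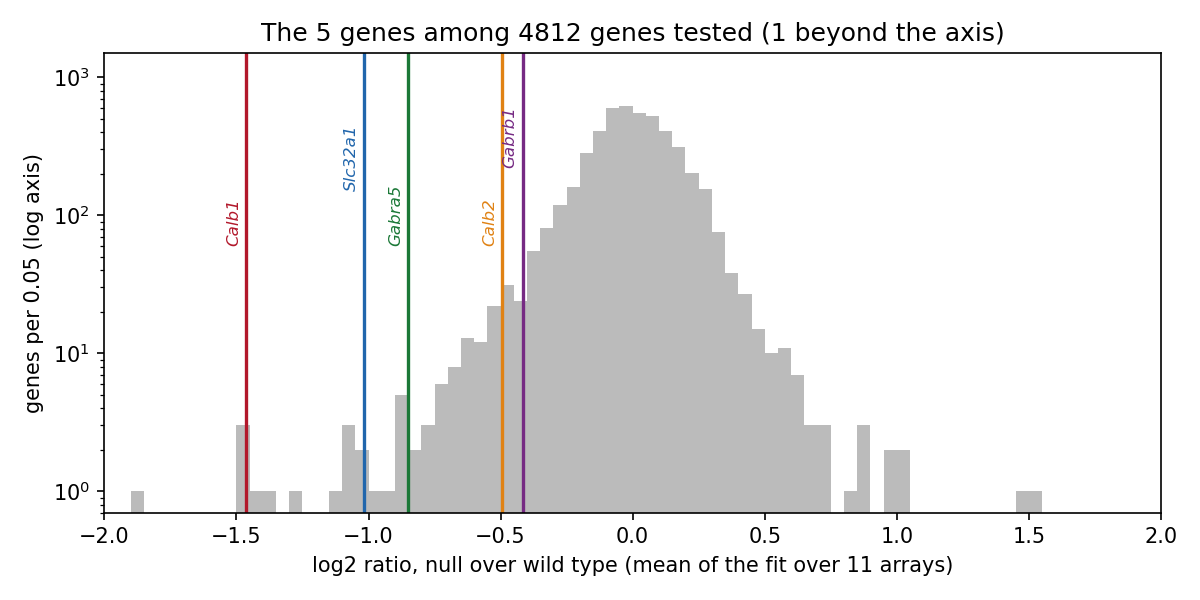
Histogram of the log2 ratio of null over wild type (x axis, mean of the fit over 11 arrays) for 4812 genes, with the number of genes per bin of 0.05 on a log axis. Coloured lines mark the 5 genes. Calb1 at -1.46 lies in the sparse left tail, whereas Gabrb1 at -0.42 lies at the edge of the main body.

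Slc32a1, which loads GABA and glycine into synaptic vesicles, ranged from -1.51 to -0.32 with a median of -1.01 over the 11 arrays. On the 5 Cy5 arrays it had log2 ratios of -1.19 (array 3), -1.13 (array 4), -1.14 (array 5), -1.42 (array 9) and -1.51 (array 11). On the 6 Cy3 arrays it lay between -1.01 and -0.32. Every Cy5 array was therefore below every Cy3 array, a pattern that 2.22% of the tested genes had. Array 1 stood apart as the least low, with the null at 80.3% of wild type, where the other arrays gave 35.0% to 61.7%. Array 1 is one of the pair whose wild-type channel carries the day 14 label. Array 6, the other of the pair, read -0.74, below array 2 (-0.70), whose wild type is labelled day 18. The pair had a mean of -0.53, against -0.87 on the other 4 Cy3 arrays and -1.10 ± 0.26 (SD, n = 9) on all others, and without the pair the fit gave -1.08.

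The enzymes that make GABA did not share the low ratio of its vesicular transporter. Gad1 lay between -0.11 and 0.43 with a median of 0.13 and was lower on only 2 of 11 arrays. Its ratio in the fit was 0.14 ± 0.05 (limma, adjusted p = 0.062), and it passed without array 1 (0.16, adjusted p = 0.036). The ratio of Slc32a1 was below that of Gad1 on 11 of 11 arrays, with a mean difference of -1.13 ± 0.40 (SD). Gad2 ranged from -0.78 to 1.03 over 9 arrays, and its ratio was 0.13 ± 0.14 (limma, adjusted p = 0.493). These arrays therefore fix Gad2 only loosely.

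The 7 other tested genes of GABA synthesis, transport and breakdown held 2 that rose, 0 that fell and 5 that did not pass, with a median of 0.14. Without 1 array 1 to 3 rose and at most 1 fell (1 rose without array 5, 6 or 8, 3 rose without array 1 or 10, and 1 fell without array 3, 4 or 10). Over all genes tested, 14.5% rose and 14.3% fell at an adjusted p of 0.05 in limma, with a median of -0.0051. These shares are the background for every list count below. Slc12a2, the importer of chloride, rose by 0.25 ± 0.05 (limma, adjusted p = 0.0019) and was higher on 10 of 11 arrays, but did not pass on the Cy5 arrays alone (0.21, adjusted p = 0.178). Glul, the glutamine synthetase of astrocytes, rose by 0.19 ± 0.06 (limma, adjusted p = 0.027), and did not pass without array 3, 5, 6 or 8 (adjusted p between 0.052 and 0.068), without arrays 1 and 6 (0.082) or without arrays 3, 4 and 10 (0.152). The betaine and GABA carrier Slc6a12 (-0.18 ± 0.07) and the glutamine carrier Slc38a3 (-0.26 ± 0.10) did not pass.

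Gabra5 encodes the alpha5 subunit, known from receptors outside the synapse that carry a tonic current. Its log2 ratio ranged from -1.16 (array 11) to -0.56 (array 10), with a median of -0.83. It varied little between arrays, with an SD of 0.16 against 0.34 for Slc32a1 and 0.39 for Calb1. On the Cy5 arrays it read -0.84, -1.01, -0.83, -0.97 and -1.16, and on the Cy3 arrays -0.87 to -0.56, so the orientations overlapped. It stood among the 5% lowest genes on 10 of 11 arrays, all but array 10.

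Gabrb1 encodes the beta1 subunit and lay between -0.62 (array 9) and -0.16 (array 8), with a median of -0.47. On arrays 3, 4, 5, 9 and 11 it read -0.47, -0.51, -0.51, -0.62 and -0.51. Of the Cy3 arrays, array 6 (-0.52) and array 7 (-0.41) came near these values, and arrays 1, 2, 8 and 10 were between -0.28 and -0.16. It was among the 5% lowest genes on 4 of 11 arrays.

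The other GABA-A receptor subunits went in both directions, and most did not pass. Of 9 tested besides Gabra5 and Gabrb1, 1 fell, 1 rose and 7 did not pass, with a median of 0.052. Gabrg1, the gamma1 subunit, fell by 0.81 ± 0.10 (limma, adjusted p = 0.00014) and was lower on the 8 arrays that measured it, from -1.17 to -0.40. With 1 of these 8 arrays left out it has too few values to be tested. Gabrq, the theta subunit, rose by 0.28 ± 0.07 (limma, adjusted p = 0.0068) and was above 0 on 11 of 11 arrays, but did not pass on the Cy5 arrays alone (0.27, adjusted p = 0.147).

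Neighbours on the chromosome did not share one direction. Gabrb1 lies on chromosome 5 in a cluster with Gabrg1, Gabra2 and Gabra4. Gabra2 had a ratio of 0.16 ± 0.07 (limma, adjusted p = 0.104) and Gabra4 one of -0.03 ± 0.05 (n = 8, adjusted p = 0.647). Without array 10, Gabra2 passed at 0.20 (adjusted p = 0.026), and without arrays 3, 4 and 10 at 0.29 (adjusted p = 0.0012). Gabra5 lies on chromosome 7 beside Gabrg3, which had a ratio of 0.14 ± 0.06 (limma, adjusted p = 0.088) as the mean of 2 probes and passed without array 8 (0.17, adjusted p = 0.039).

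The remaining subunits were Gabrb2 (-0.17 ± 0.07, adjusted p = 0.082 in limma), Gabra3 (-0.09 ± 0.07), Gabra6 (0.05 ± 0.05) and Gabrr1 (0.12 ± 0.07). Gabrb2 passed without array 4 (-0.20, adjusted p = 0.048). Of 5 tested genes of GABA-B receptors and the inhibitory postsynapse, 0 passed in limma over all arrays, with a median of -0.016. Without array 10, or without arrays 3, 4 and 10, 1 of them rose. They were Gabbr1 (-0.01 ± 0.10), the scaffold gephyrin, Gphn (-0.02 ± 0.09), Gabarap (-0.08 ± 0.06), Gabarapl1 (-0.07 ± 0.06) and the glycine receptor subunit Glrb (0.22 ± 0.09, adjusted p = 0.086), and Glrb passed without array 10 (0.26, adjusted p = 0.049).

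**Figure D2:**
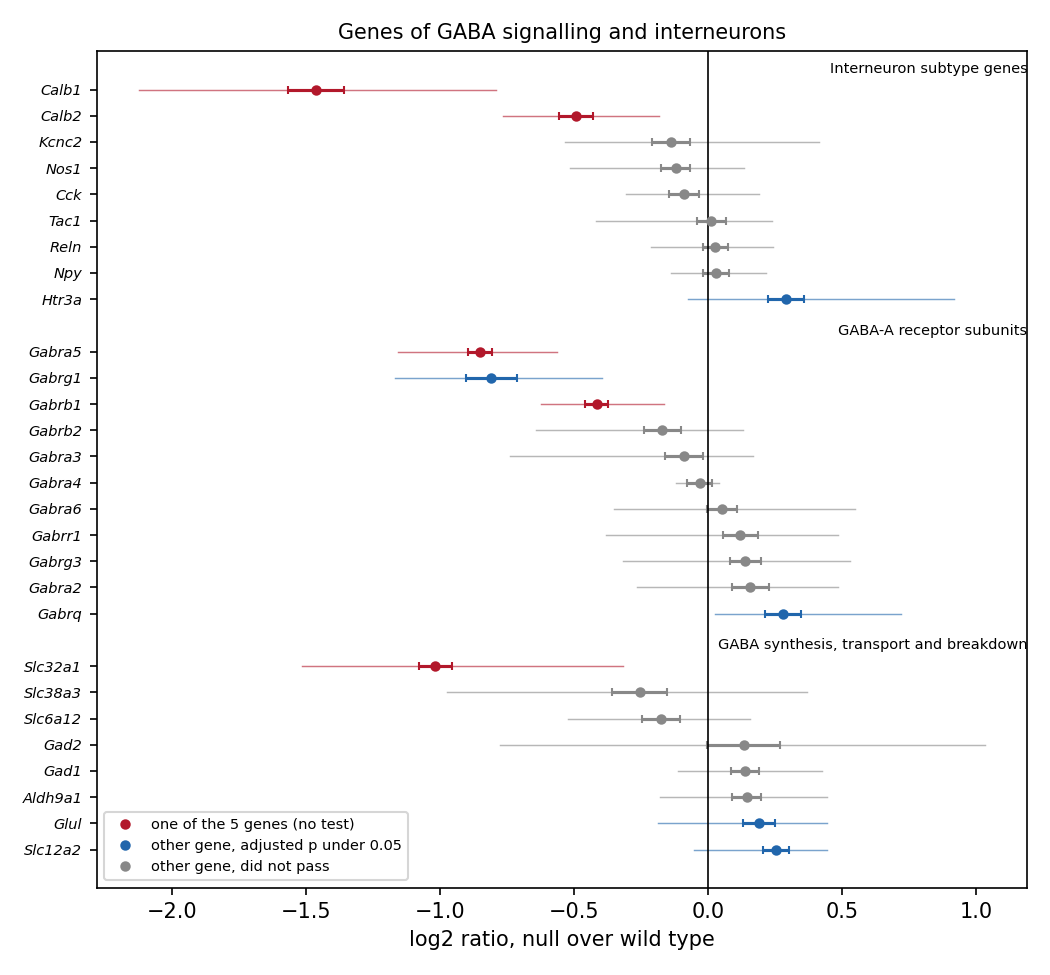
Log2 ratio of null over wild type (x axis) for the tested genes of 3 lists on GABA and interneurons. Points with bars are the fit's mean ± SE, thin lines run from the lowest to the highest array, and colours separate the 5 genes (red, no test), other genes past an adjusted p of 0.05 (blue) and the rest (grey). Slc32a1, Gabra5 and Gabrg1 stand well left of the other GABA genes, and Gad1 and Gad2 lie slightly right of 0.

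Calb1 had the lowest ratios of the group, between -2.12 (array 9) and -0.79 (array 4), with a median of -1.47. It was the lowest of all measured genes on arrays 6 and 9 and among the 50 lowest on 8 of 11 arrays. The 3 exceptions were arrays 3, 4 and 10, at -1.07, -0.79 and -1.10. The mean on these 3 arrays was -0.99, against -1.65 on the other 8, and without them the fit gave -1.66. As the 3 were set apart by their Calb1 values, the direction of this gap follows from the choice. General neuronal markers behaved differently there, with list medians of -0.31, -0.19 and -0.21 on arrays 3, 4 and 10 and of -0.15 to 0.011 on the other 8. The GABA-B and inhibitory postsynapse list was also lower there (-0.32, -0.31 and -0.47, against -0.053 to 0.32). Microglia markers were not apart there, at 0.57, 0.46 and 0.50, within the 0.34 to 0.77 of the others. The part of neuronal content in these differences was not tested.

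Calb2 was less low and less even, from -0.77 (array 11) to -0.18 (array 5), with a median of -0.54. Arrays 4 and 5 gave -0.19 and -0.18, which leaves the null at 87.9% and 88.1% of wild type, while arrays 3, 10 and 11 gave 58.8% to 61.4%. Both extremes thus fell on Cy5 arrays. Its mean on arrays 1 and 6 was -0.34, against -0.53 ± 0.22 (SD, n = 9) on the others. Calb1 went the other way, with a mean of -1.70 on arrays 1 and 6 against -1.42 ± 0.41 (SD, n = 9).

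Mean differences between members exceeded their SD over arrays for most pairs, in an order taken from these same selected values. Calb1 was below Calb2 on 11 of 11 arrays, with a difference of -0.97 ± 0.45 (SD), and below Gabrb1 on 11 of 11, with one of -1.06 ± 0.37. Gabra5 was below Gabrb1 on 11 of 11 arrays, with a difference of -0.43 ± 0.16. Of neighbours in the order, Calb1 and Slc32a1 differed by -0.47 ± 0.50 (9 of 11 arrays in that order), Slc32a1 and Gabra5 by -0.15 ± 0.28 (9 of 11), and Calb2 and Gabrb1 by -0.09 ± 0.30 (7 of 11), each within the spread. Gabra5 and Calb2 differed by -0.34 ± 0.27 (10 of 11). The other pairs were Calb1 and Gabra5 (-0.63 ± 0.42), Slc32a1 and Calb2 (-0.50 ± 0.35) and Slc32a1 and Gabrb1 (-0.59 ± 0.25).

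**Figure D3:**
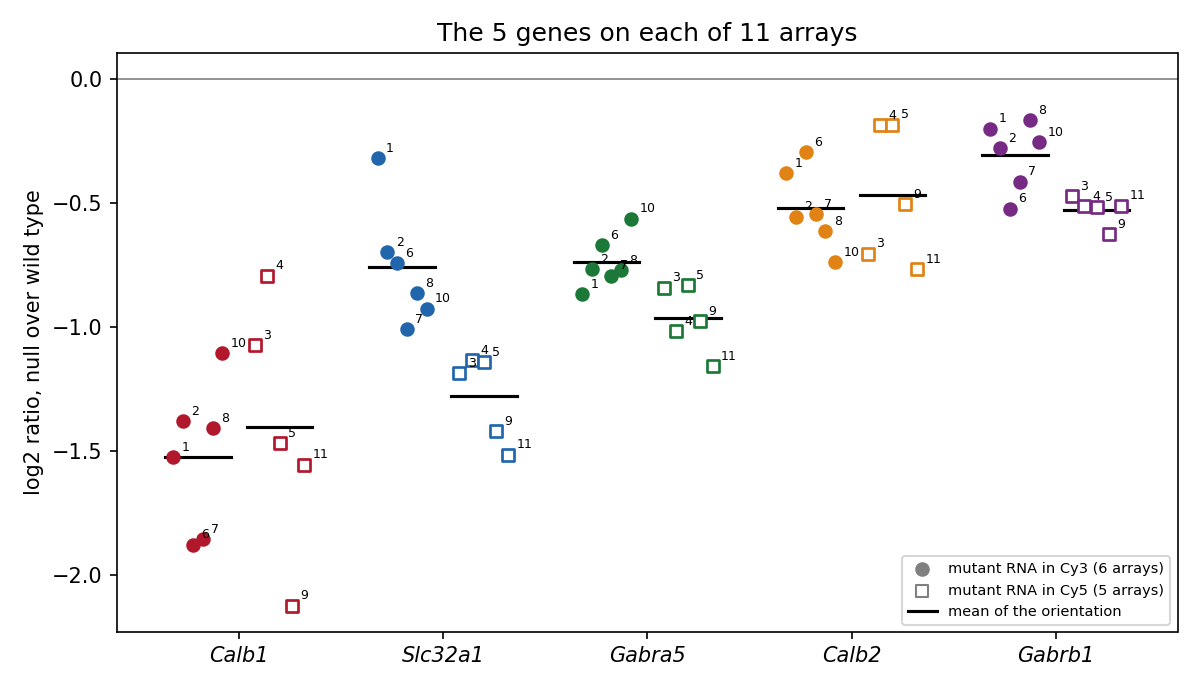
Log2 ratio of null over wild type (y axis) of the 5 genes on each array, numbered beside the points. Filled circles are the 6 arrays with the mutant in Cy3, open squares the 5 with the mutant in Cy5, and black lines the mean of each orientation. All points lie below 0, the orientations are apart for Slc32a1, and arrays 3, 4 and 10 are the least low for Calb1.

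Other EF-hand proteins included some with falls near that of Calb2. Of 31 tested besides Calb1 and Calb2, 7 fell, 4 rose and 20 did not pass, with a median of -0.043. Over all genes, 14.3% fell and 14.5% rose, so these counts do not set the list apart. Vsnl1, the neuronal calcium sensor visinin-like 1, fell by 0.54 ± 0.06 (limma, adjusted p = 1.5e-05) and ranged from -1.11 to -0.21. Caln1 (calneuron 1) fell by 0.49 ± 0.04 (limma, adjusted p = 1.7e-06), from -0.66 to -0.33 over the arrays. Both were lower on 11 of 11 arrays.

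The other 5 that fell were S100a1 (-0.30), the centriole protein Cetn2 (-0.28), Guca1a (-0.21), the neuronal sensor hippocalcin, Hpca (-0.17), and Hpcal1 (-0.16). Those that rose were Kcnip3 (0.25 ± 0.06), a potassium channel partner, Cib1 (0.19), the matrix protein Sparc (0.18) and S100a6 (0.16). The number that fell was 2 on the Cy5 arrays alone and 4 without arrays 1 and 6. The number that rose was 2 without array 2, 4, 6, 7, 8 or 10 and on the Cy3 arrays alone, and 0 on the Cy5 arrays alone.

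**Figure D4:**
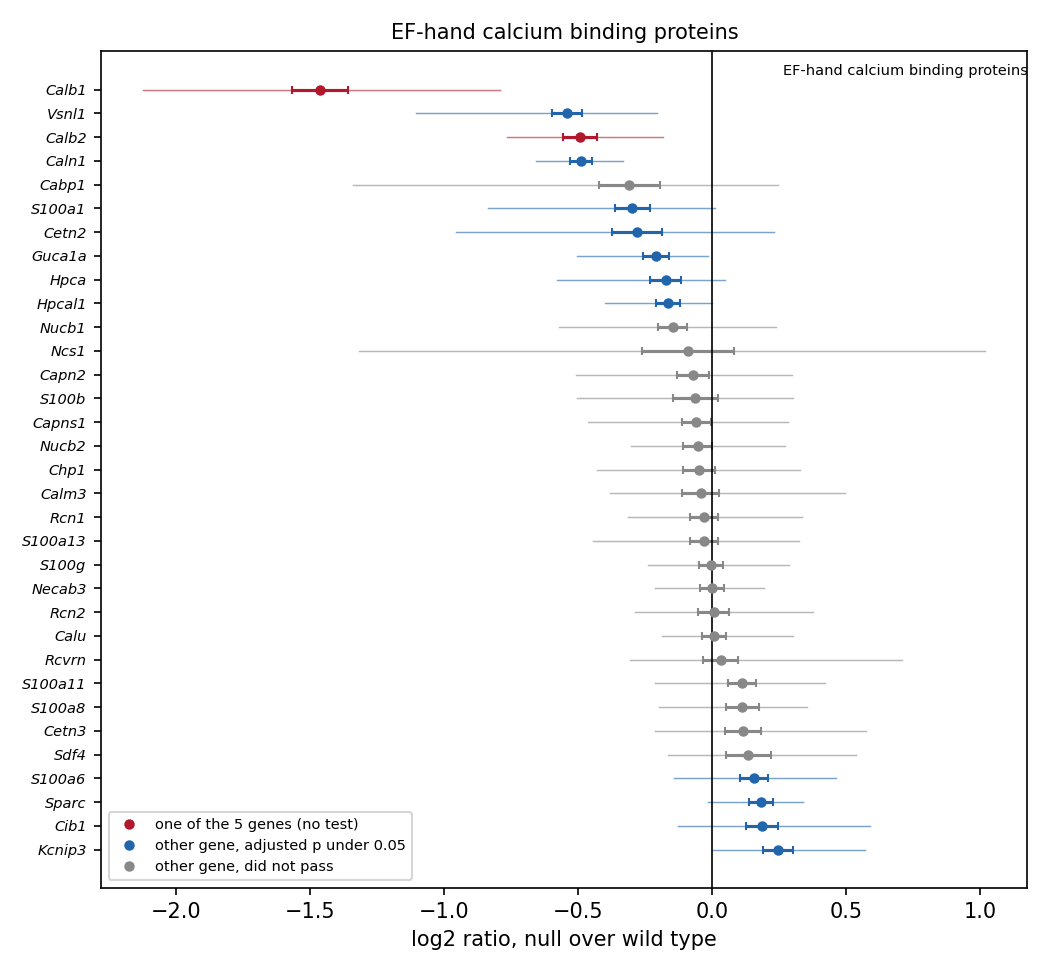
Log2 ratio of null over wild type (x axis) for 33 tested genes of EF-hand proteins, drawn as mean ± SE of the fit with thin lines from the lowest to the highest array and the same colours (red for Calb1 and Calb2, blue for other genes past an adjusted p of 0.05). Calb1 at -1.46 stands apart, and Vsnl1 and Caln1 lie beside Calb2 at about its ratio of -0.49.

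Genes that pump or store calcium were lower in part. Of 11 tested, 5 fell and 0 rose in limma, with a median of 0.0059. The plasma membrane pump Atp2b2 fell by 0.55 ± 0.14 (adjusted p = 0.011), with arrays from -1.51 to 0.21, and did not pass on the arrays of either orientation alone. Without arrays 3, 4 and 10 the ratio of Atp2b2 was -0.24 (adjusted p = 0.041) and that of calreticulin, Calr, -0.14 (adjusted p = 0.024). Of the others, the ryanodine receptor Ryr2 fell by 0.38 ± 0.06 (adjusted p = 0.00050), Calr by 0.24 ± 0.06 and the pump Atp2a2 by 0.21 ± 0.05. Calnexin, Canx, was the fifth (-0.17). Calr passed on neither orientation alone (limma, adjusted p = 0.238 on the Cy3 arrays and 0.059 on the Cy5 arrays). Atp2a2 did not pass on the Cy3 arrays alone (-0.07, adjusted p = 0.490) or without arrays 1 and 6 (-0.16, adjusted p = 0.056). On the Cy3 arrays alone 2 of 13 tested genes fell, on the Cy5 arrays alone 2 of 12, and without arrays 1 and 6 3 of 12. Without array 10, 1 rose.

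Other markers of interneuron classes did not follow Calb1 and Calb2. Of 7 tested, 1 rose, 0 fell and 6 did not pass, with a median of 0.012. Without array 11, 2 of 6 fell. The serotonin receptor Htr3a rose by 0.29 ± 0.07 (limma, adjusted p = 0.0066), on 10 of 11 arrays, but did not pass on the arrays of either orientation alone. Reln (0.03 ± 0.05), Npy (0.03 ± 0.05), Tac1 (0.01 ± 0.06), Cck (-0.09 ± 0.06), Kcnc2 (-0.14 ± 0.07) and Nos1 (-0.12 ± 0.06, adjusted p = 0.115) lay near 0. Nos1 passed without array 11 (-0.16, adjusted p = 0.049). Sst, the somatostatin precursor, had values on only 7 arrays and was not tested, and these ran from 0.0027 to 0.72, all above 0.

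Transcription factors and migration genes of interneurons also lay near 0. Of 18 tested, 2 rose, 1 fell and 15 did not pass, with a median of 0.044. Dlx1 had a ratio of 0.09 ± 0.06, Dlx2 one of -0.05 ± 0.07, Dlx5 one of -0.16 ± 0.07, Nkx2-1 one of -0.07 ± 0.09 and Sox6 one of -0.04 ± 0.05. The 2 probes of Lhx6 disagreed in sign, at -0.20 and 0.28. Npas3 fell by 0.28 ± 0.06 (limma, adjusted p = 0.0058) but passed on neither orientation alone, Robo1 rose by 0.15 ± 0.04 (adjusted p = 0.022), and Nrp1, a semaphorin receptor, rose by 0.24 ± 0.08 (adjusted p = 0.045). Nrp1 did not pass without array 1, 2, 5, 6, 7, 8, 9 or 11 (adjusted p between 0.052 and 0.111), and neither Robo1 nor Nrp1 did without arrays 1 and 6. Without arrays 3, 4 and 10, Nrp1 had a ratio of 0.41 (adjusted p = 0.00035). Ackr3, a chemokine receptor, missed the threshold (0.16 ± 0.06, adjusted p = 0.056) and passed without array 3, 4 or 7 (adjusted p between 0.032 and 0.043). Without 1 array, 1 to 4 genes of this list rose and 1 to 2 fell, with 1 that rose without array 1, 2, 5, 6, 8, 9 or 11, and with 3 that rose and 2 that fell without array 3 and 4 and 2 without array 4. Without arrays 3, 4 and 10, 6 rose and 3 fell, and without arrays 1 and 6 0 rose.

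Markers of other cells and regions moved beside the 5 genes. Of 18 tested markers of striatum and thalamus, 6 fell and 0 rose (median -0.065, and -0.34 to -0.00034 over single arrays). Prkcd (-0.88 ± 0.07), Ppp1r1b (-0.71 ± 0.05), Zic1 (-0.53 ± 0.07) and Isl1 (-0.30 ± 0.04) were lower on 11 of 11 arrays, while the striatal receptor genes Drd1 (-0.0042 ± 0.15, n = 8) and Drd2 (-0.06 ± 0.05) did not pass. Of 8 Cajal-Retzius markers besides Calb2, 2 fell, 1 rose and 5 did not pass (median 0.0078, and -0.30 to 0.033 over single arrays). Cacna2d2 fell by 0.62 ± 0.05, Eomes rose by 0.44 ± 0.06, and Reln, also listed above for interneuron classes, had a ratio of 0.03. Ebf1, which is counted in the striatum and thalamus list too, fell by 0.25 ± 0.05. It did not pass on the Cy3 arrays alone (-0.13, adjusted p = 0.210 in limma). The part of such cells in the ratios of Calb1 and Calb2 was not tested.

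Of 21 general neuronal markers 8 fell and 1 rose (median -0.13), with Syp (-0.68 ± 0.15), Gap43 (-0.50 ± 0.04), Eno2 (-0.40 ± 0.06) and Stmn3 (-0.35 ± 0.06) of smallest p. The number that fell was 3 on the arrays of either orientation alone, 5 without array 7 and 5 without arrays 1 and 6. Without arrays 3, 4 and 10, Syp had a ratio of -0.39 (adjusted p = 0.0090). Of 15 markers of neocortical projection neurons 7 rose and 0 fell (median 0.20), among them Crym (0.40), Neurod6 (0.40), Fezf2 (0.32) and Tbr1 (0.30), though 0 rose on the Cy5 arrays alone. The list median was not above 0 on every array: it was -0.00085, -0.043 and -0.16 on arrays 3, 4 and 10, and 0.14 to 0.39 on the others. Microglia markers rose in 8 of 11 tested and fell in 2 (median 0.63, and 0.34 to 0.77 over single arrays), led by Laptm5, C1qc, C1qa and Ctss. Astrocyte markers rose in 6 of 12 and fell in 1 (median 0.17, and 0.033 to 0.44 over single arrays), with Gfap, Apoe and Gja1 higher and Slc1a3 lower, and 2 rose on the Cy5 arrays alone. The part of these cells in the ratios of the 5 genes was not tested.

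The means of the 3 GABA genes were lower on the Cy5 than on the Cy3 arrays, and those of Calb1 and Calb2 were slightly higher, with no difference past the threshold. This is a comparison the choice of the genes did not use. The mean on the Cy5 arrays less that on the Cy3 arrays was -0.52 ± 0.12 (SE) for Slc32a1, -0.23 ± 0.09 for Gabra5, -0.22 ± 0.08 for Gabrb1, 0.12 ± 0.21 for Calb1 and 0.05 ± 0.13 for Calb2. The dye term passed for none of them in limma, with adjusted p of 0.062, 0.155, 0.150, 0.752 and 0.832. Over all genes it passed for 0 of 4812 (0.0%) at an adjusted p of 0.05, while 1087 of 4812 genes had an unadjusted p under 0.05.

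Array 10, with the mutant in Cy3, decided that count. Without it 314 genes passed and Slc32a1 was among them (-0.55, adjusted p = 0.031), and 50 passed without array 5. Without arrays 3, 4 and 10 the difference of Slc32a1 between orientations was -0.63 (limma, adjusted p = 0.035). With all arrays scaled to the same spread it was -0.31 (adjusted p = 0.278). Under that scaling the difference was -0.035 for Gabra5, -0.12 for Gabrb1, 0.42 for Calb1 and 0.13 for Calb2, and none passed. Dye, array and embryo cannot be told apart in these differences.

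**Figure D5:**
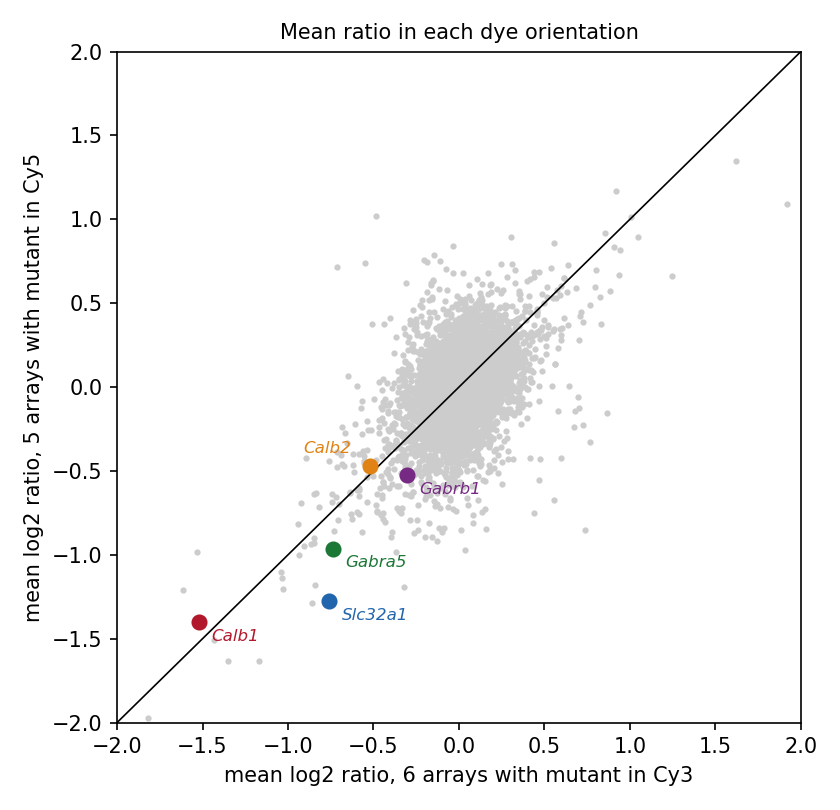
Mean log2 ratio of null over wild type on the 6 arrays with the mutant in Cy3 (x axis) and on the 5 with the mutant in Cy5 (y axis), for the tested genes (grey, within the axes) and the 5 genes (coloured). The line marks equal ratios. Slc32a1 (-0.76 and -1.28), Gabra5 and Gabrb1 lie below the line, and Calb1 and Calb2 close to it.

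The genes most like each member over the 11 arrays were ranked by the root-mean-square difference of log2 ratios among 3696 genes with values on all arrays. Nearest to Slc32a1 were Pcp4 (0.22), a calmodulin regulator, the serotonin receptor Htr4 (0.29) and Rragc (0.30). Nearest to Gabra5 were Sqle (0.17), an enzyme of cholesterol synthesis, Ndn (0.22) and Traip (0.23). Gabrb1 was nearest to the neurotrophin receptor Ntrk3 (0.12), the vesicle priming factor Cadps (0.12) and the neurexin Nrxn2 (0.13). These genes have ratios close to that of their member by construction.

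Nearest to Calb1 were the proteoglycan Spock3 (0.29), Cdc42ep5 (0.37) and the granin Scg2 (0.43). Nearest to Calb2 were the growth cone protein Gap43 (0.21), the sterol reductase Dhcr7 (0.21) and Cdkn2d (0.21). Slc32a1 and Gabra5 lay 0.31 apart on this measure and Calb1 and Calb2 1.06 apart. Each member was nearer to some gene outside the group than to any inside it. Few of the 3696 genes compared are members, so a nearer outside gene is likely whatever the members share. Nothing about the group follows from this ranking.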

How the data were processed

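The authors deposited 1 log ratio per probe and array, treated as log2 and as null over wild type. No source used here gives the background correction, the normalization, the log base or the direction. Of 6856 probes, 6269 had 1 symbol in the platform annotation, 6250 of them updated through Entrez identifiers to RefSeq (GRCm38.p6). Probes with several symbols stayed unnamed, and 17.3% of the cells were empty. The mutated gene is not reported here. Probes of 1 gene were averaged. Genes measured on 8 or more arrays, 3 or more per dye orientation, were fitted with limma 3.58.1 (R 4.3.3), with a mean and a dye term, two-sided, with Benjamini-Hochberg adjustment over 4812 genes at 0.05. The wild-type RNA was read as 1 pool, so the test against 0 leaves out its spread. The replicates are biological, per the labels.

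The members, 7 pathway lists and 6 marker lists were chosen with earlier results of these data known. Named genes are the members, Gad1, Gad2, the GABA-A subunits tested, up to 4 genes of smallest p in each list and the 3 genes most like each member. Others were named after their values were seen. Alternatives changed the dye term, arrays, scaling, filter and probes. On simulated data for null against wild type over 4812 genes, the fit recovered 40% of changes of 0.2, 74% of 0.3, 94% of 0.5 and 100% of 1 on the log2 scale, and 10 of 164 calls were false. The simulation changed 200 genes and drew noise for each gene independently. Its rates may not hold where genes move together on an array.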

Additional observations from a re-analysis of the deposited data

How the results depend on the processing

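Under every alternative but the reversal of the Cy5 arrays, the 5 genes kept ratios below 0 and moved by less than 1 SD between arrays. Each was below 0 on all 11 arrays, so no subset of arrays could have given another sign. The kept sign is therefore no test. Leaving out 1 array gave -1.06 to -0.99 for Slc32a1, -0.87 to -0.83 for Gabra5, -0.43 to -0.39 for Gabrb1, -1.54 to -1.37 for Calb1 and -0.53 to -0.46 for Calb2. With the Cy5 arrays reversed, as if their direction had been mislabelled, Slc32a1 had a ratio of 0.26, Gabra5 0.11, Gabrb1 0.11, Calb1 -0.061 and Calb2 -0.026. The counts of higher and lower genes were then 0 and 0, and 0 and 0 in the pathway lists. Reversal swaps the mean and the dye term of the fit. The ratios, counts and signs under it therefore restate the dye term, which passed for 0 of 4812 genes, and are no separate check. Some named genes that had not passed turned sign there, and those that had passed and turned were Atp2a2 (0.14), Atp2b2 (0.31), Cacna2d2 (0.18), Calr (0.12), Ebf1 (0.12), Eno2 (0.036), Eomes (-0.086), Gap43 (0.063), Htr3a (-0.14), Isl1 (0.060), Laptm5 (-0.0039), Npas3 (0.067), Robo1 (-0.015), Ryr2 (0.13), Slc1a3 (0.0032), Syp (0.31), Vsnl1 (0.18) and Zic1 (0.19). On the Cy5 arrays alone 139 genes rose and 234 fell, against 699 and 687 on all arrays, and in the pathway lists 0 and 8 against 10 and 14. The pathway lists had 17 higher genes without arrays 3, 4 and 10 and 9 lower ones without arrays 1 and 6. Leaving out 1 array gave 520 to 754 higher and 540 to 714 lower genes, 6 to 12 higher and 11 to 16 lower pathway genes, the 6 without array 6, and 0 to 314 genes with a dye difference, the 314 without array 10. Some counts rose with fewer arrays: without arrays 3, 4 and 10, 901 genes rose and 784 fell over all genes. The cause of these changes in number was not tested. Signal over background is unknown, and dim probes could not be filtered. No paired analysis was possible because each array already sets 1 null sample against wild-type RNA and the labels give 1 group.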

Other observations

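Gabra5 lies on chromosome 7 near a run of imprinted genes. Genes picked from in and around this run, not all of them imprinted, had different ratios. Ndn, a gene of the MAGE family expressed from the paternal copy, fell by 0.67 ± 0.06 (limma, adjusted p = 1.6e-06) and Snrpn, a splicing factor gene also expressed from the paternal copy, fell by 0.39 ± 0.04 (adjusted p = 2.7e-05), both on 11 of 11 arrays. Atp10a rose by 0.18 ± 0.05 (adjusted p = 0.017), on 9 of 11. Ube3a (-0.08 ± 0.04), Herc2 (-0.25 ± 0.11) and Gabrg3 (0.14 ± 0.06) did not pass. This set was put together after its values were seen, and nothing follows from it about the region.

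A few interneuron genes had too few values to be tested. The transcription factor Npas1 had values on 6 arrays, all between -0.41 and -0.16, while Sst was above 0 on the 7 arrays that measured it. Whether the empty cells of these genes depend on their level is unknown here.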
